A study of Mus musculus with 7 samples.

Results

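The genes studied here are 10 genes of MHC class I antigen presentation, taken by gene symbol from the deposited gene tables of mouse T-cells. They comprise the classical heavy chains H2-K1 and H2-D1, the light chain B2m, the peptide transporter subunits Tap1 and Tap2, the loading factor Tapbp, the transcriptional activator Nlrc5 and the immunoproteasome subunits Psmb8, Psmb9 and Psmb10. They make up 10 of the 25033 genes listed, and all 10 were among the 13462 genes that passed the filter on low counts. The lowest count of any of them in any library was 749.

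The study asked which transcripts differ between wild-type (WT) T-cells and T-cells with a knock-in allele of the oxysterol-binding protein ORP4L. A single library was made from each of 4 ORP4L KI mice and 3 WT littermates, all of strain C57BL/6J and 15 months of age by the labels. The knock-in allele carries the coding sequence of human ORP4L at Rosa26, behind a CAG promoter and a floxed stop cassette. It has a 3x Flag tag and an IRES-EGFP reporter. It was opened by Cre under the Lck promoter, which is active in the T-cell lineage. The ORP4L KI mice were taken when moribund with T-cell leukemia, so the knock-in and advanced disease cannot be told apart, and the source of each library, blood or spleen, is not given in the sources used here.

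The total count ranged from 12918187 to 15912921 in WT and from 16757959 to 19665679 in ORP4L KI libraries. Osbp2, the mouse gene for ORP4L, had 0, 0 and 1 counts in WT replicates 1 to 3. It had 188, 742, 155 and 443 in ORP4L KI replicates 1 to 4. These counts do not separate the transgene from the endogenous gene. The transgene is human and reads were aligned to mouse mRNAs, so they do not give its level either. All 15 T-cell markers were detected in every library, and their summed share of counts was 0.302 to 0.472% in WT and 0.167 to 0.614% in ORP4L KI. The 14 granulocyte markers took 0.186 to 0.532% of counts in WT and 1.12 to 12.2% in ORP4L KI, with the highest share in ORP4L KI replicate 1. The 9 class II presentation genes, which antigen-presenting cells express strongly, took 0.886 to 2.12% of counts in WT and 0.341 to 0.872% in ORP4L KI. The study's methods describe a naive CD4+ T-cell isolation kit, a step that would remove these other cells, without stating whether it was used for these libraries. T-cell transcripts were present in every library beside markers of other cell types, and in such bulk RNA fewer cells of a type and less RNA per cell cannot be told apart. Libraries also differed by transcript length. Genes under 1500 nt had a median deviation of -0.40 on the log2 CPM scale (CPM, counts relative to the library size after TMM scaling) in WT replicate 3 and -0.29 in ORP4L KI replicate 2, while genes over 4000 nt were shifted by 0.28 and 0.21 there. ORP4L KI replicate 1 was shifted the other way, by 0.29 for the short and -0.21 for the long genes.

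MHC class I molecules display peptides from proteins made inside the cell to CD8+ T-cells, and nearly all nucleated cells carry them. The proteasome cuts proteins into peptides, the TAP transporter moves these into the endoplasmic reticulum, and tapasin bridges the transporter to an empty heavy chain bound to beta-2 microglobulin until a fitting peptide is bound. Interferons raise the whole pathway, and lymphocytes keep it high at rest through NLRC5, a regulator that binds the promoters of class I genes by way of other proteins.

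By RefSeq (GRCm38.p6), 7 of the genes lie on chromosome 17, in or near the MHC. These are Tapbp at chr17:33919478-33929290, H2-K1 at chr17:33996012-34000619, Psmb9 at chr17:34182030-34187330, Tap1 at chr17:34187556-34197225, Psmb8 at chr17:34198195-34201454, Tap2 at chr17:34204479-34216321 and H2-D1 at chr17:35263094-35267497. B2m lies apart at chr2:122147687-122153082, and Nlrc5 and Psmb10 lie on chromosome 8 at chr8:94434335-94527272 and chr8:105935728-105938392. H2-K1 and H2-D1 are close paralogs. Their coding sequences matched at 991 of 1120 aligned positions in the GENCODE vM21 transcripts. The longest stretch common to both is 91 bases within exon 4, which encodes the alpha 3 domain, at chr17:33997343-33997433 on the minus strand for H2-K1 and at chr17:35265911-35266001 on the plus strand for H2-D1. It is shown because a read that falls wholly inside it cannot be placed in one gene or the other.
H2-K1 and H2-D1, exon 4: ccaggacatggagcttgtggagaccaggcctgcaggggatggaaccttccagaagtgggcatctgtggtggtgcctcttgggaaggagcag

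Exact sharing with any other gene of GENCODE vM21 covered 8.79% of the 50-nt windows of the H2-K1 transcript and 14.3% of those of H2-D1. At 100 nt these shares were 0% and 4.64%, and at 150 nt they were 0% and 1.79%, with H2-Q1 the main partner of H2-D1. B2m, Nlrc5, Psmb8, Psmb9 and Psmb10 shared no 50-nt window with another gene, Tap1 and Tap2 shared 25 windows with each other, and Tapbp shared 2.24% of its windows. The reads were aligned to a different set of mouse mRNAs, in which sharing was not measured. How the mapping treated reads with several matches is not given in the sources used here. H2-L, which the b haplotype of C57BL/6J is known to lack, was nevertheless listed with counts that came to between 4.89 and 7.09% of those of H2-D1. The highest of these shares was in ORP4L KI replicate 1. The division of reads among H2-K1, H2-D1 and the other heavy chains is therefore uncertain, and the comparison was also made on their sum.

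The promoter table from RefSeq (GRCm38.p6) held 8 of the 10 genes, and the entries of Tap2 and Nlrc5 were missing. The windows of H2-K1, H2-D1 and B2m are shown because these genes had the highest levels of the set, and the stretch between Psmb9 and Tap1 because both genes start from it in opposite directions. All windows lie upstream of the start site in that table. For H2-K1 that site lies within the RefSeq span of the gene, and so does the window, which no GENCODE exon overlapped. They are written on the strand of the gene, or of Tap1 for the shared stretch. Capitals mark matches to 5 motifs searched on both strands, namely the interferon-stimulated response element (GAAA, any 2 bases, GAAA), the gamma-activated site (TTCNNNGAA), the NF-kB site (GGG, any 4 bases, CCC), the CCAAT box and the core of the cyclic AMP response element (TGACG).
H2-K1, chr17:34000348-34000477, minus strand: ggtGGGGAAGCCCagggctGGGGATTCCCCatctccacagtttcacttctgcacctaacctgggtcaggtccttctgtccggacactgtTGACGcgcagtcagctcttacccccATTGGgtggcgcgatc
H2-D1, chr17:35262904-35263033, plus strand: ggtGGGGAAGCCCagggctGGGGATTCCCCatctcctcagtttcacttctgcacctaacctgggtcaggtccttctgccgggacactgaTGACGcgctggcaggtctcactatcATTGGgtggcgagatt
B2m, chr2:122147527-122147686, plus strand: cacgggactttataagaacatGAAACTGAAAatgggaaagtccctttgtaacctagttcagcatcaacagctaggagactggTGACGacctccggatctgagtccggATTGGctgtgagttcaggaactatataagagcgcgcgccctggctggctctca
Psmb9 to Tap1, chr17:34187331-34187555, plus strand: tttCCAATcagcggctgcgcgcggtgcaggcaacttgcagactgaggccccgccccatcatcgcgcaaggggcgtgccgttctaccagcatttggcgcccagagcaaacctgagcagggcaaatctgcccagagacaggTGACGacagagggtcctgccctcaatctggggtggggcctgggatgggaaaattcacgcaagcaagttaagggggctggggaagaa

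The windows of H2-K1 and H2-D1 were identical at 117 of 130 bases. Within them, overlapping NF-kB matches, a TGACG and an inverted CCAAT box (ATTGG) stood at the same places. Both windows were cut to begin just before the first NF-kB match, so the place of that match was set in advance. Before the start site that match began at 127 bases in H2-K1 and 187 in H2-D1. TGACG began at 41 and 101, and ATTGG at 16 and 76. Over the full promoter windows, the NF-kB letters were found in 2 of the 8 genes, against 11.6% of 27025 promoters. TGACG was found in 5 of the 8, against 21.0%, and CCAAT in 6 of the 8, against 37.9%. The interferon-stimulated element was matched in B2m alone, against 3.49%, and the gamma-activated site in Psmb8 alone, against 8.47%. These matches are a description of letters. The H2-D1 window and the shared stretch also lie inside the first exon of another GENCODE transcript, H2-D1-202 and Psmb9-204. The latter covers the whole stretch up to the Tap1 start, on the opposite strand. Whether it reaches past that start was not measured. Strand-specific counting is not stated, so reads from any such overlap could not be assigned to one gene.

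None of the 10 class I presentation genes differed between ORP4L KI and WT T-cells beyond the spread between mice. Their log2 fold changes (ORP4L KI over WT) lay between -0.26 for Tap1 and 0.16 for H2-K1, with a median of -0.03, against 0.01 over all 13462 genes tested. Calls were made at 2 thresholds, an unadjusted p under 0.01 together with a fold change over 2, and an adjusted p (Benjamini-Hochberg) under 0.05. The edgeR quasi-likelihood test called 0 of 10 at the first threshold, where 630 of 13462 genes (4.68%) were called, 320 higher (2.38%) and 310 lower (2.30%). With scaling by total counts alone that split was 275 and 407. At the second threshold it called 0 of 10, where 3 genes (0.0223%) were called. None of the 10 had an unadjusted p under 0.05 in that test, in DESeq2's Wald test, in edgeR's likelihood ratio and exact tests or in limma-voom, where 1845 genes (13.7%) had one in the first. The 4 ORP4L KI values lay wholly above or below the 3 WT values for 0 of 10 genes, against 13.8% of all genes tested. Without WT replicate 3, Tap1, Psmb8, Psmb9 and Psmb10 separated, all lower in ORP4L KI, against 26.8% of all genes tested, and without ORP4L KI replicate 1, H2-K1 separated, higher in ORP4L KI, against 19.1%. These omissions were examined for overlap after the data were seen. The 95% intervals of all 10 fold changes lay inside a 2-fold change in either direction, so larger differences were not seen while smaller ones could not be resolved with these mice. The plot of scaled counts by library shows how far each gene's groups overlap.

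**Figure D1:**
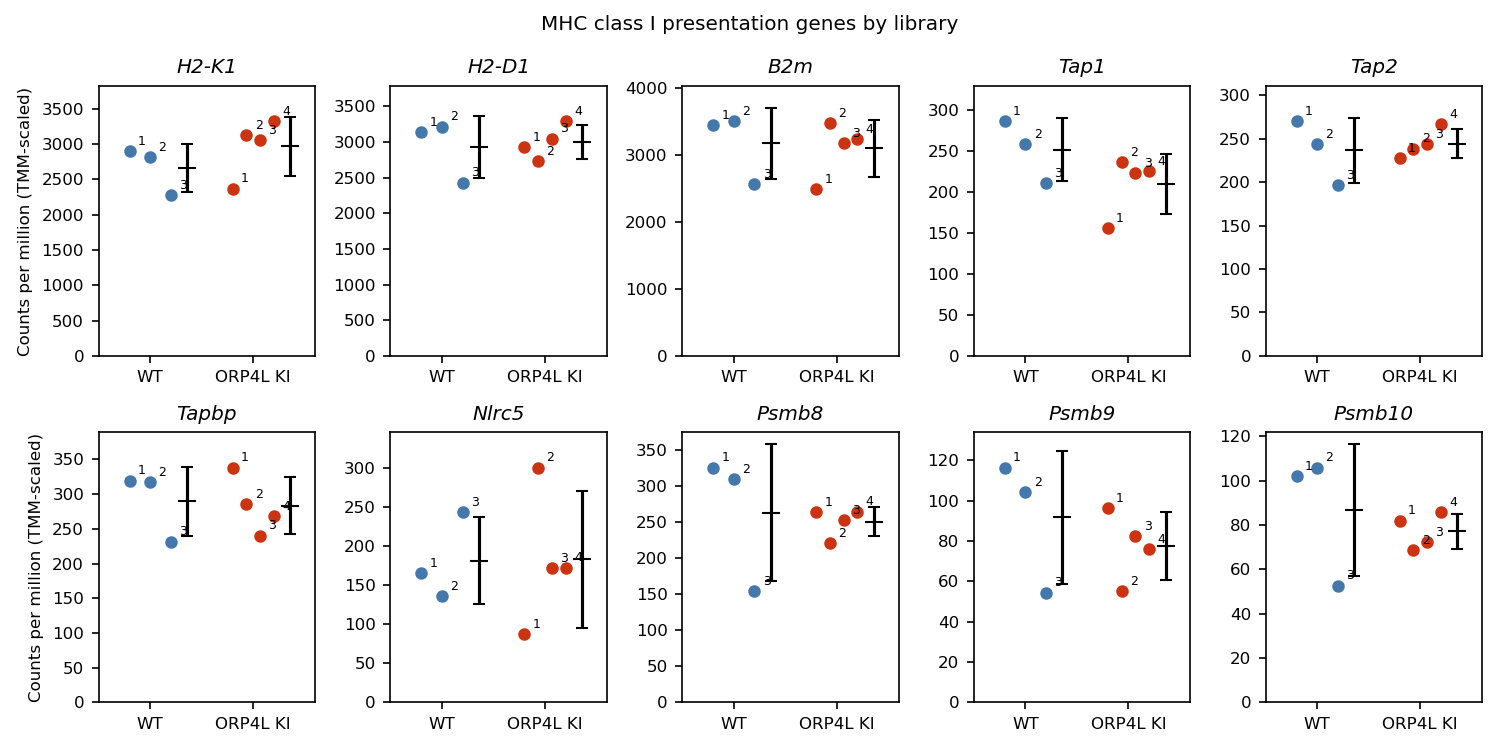
TMM-scaled CPM (vertical axes from 0) of each gene in the 3 WT libraries (blue) and 4 ORP4L KI libraries (red), numbered by replicate, with the mean and SD in black. The groups overlap in every panel, and WT replicate 3 is the lowest library for 7 of the 10 genes.

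H2-K1, which presents peptides as the K molecule, had 2892, 2812 and 2271 CPM in WT replicates 1 to 3. It had 2367, 3125, 3053 and 3320.3 CPM in ORP4L KI replicates 1 to 4. ORP4L KI replicates 2 to 4 lay above every WT library and replicate 1 lay within the WT range. The log2 fold change was 0.16 (SE 0.23, edgeR quasi-likelihood test, adjusted p = 0.845), with a 95% interval from -0.37 to 0.68.

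H2-D1, the second classical heavy chain of this strain, had 3138, 3216 and 2432 CPM in WT and 2924, 2737, 3048 and 3293 CPM in ORP4L KI. Only ORP4L KI replicate 4 lay above the WT range. The log2 fold change was 0.04 (SE 0.22, edgeR quasi-likelihood test, adjusted p = 0.967). Per length, in the deposited RPKM, H2-K1 stood at 0.980, 0.930 and 0.993 of H2-D1 in WT and at 0.861, 1.21, 1.06 and 1.07 in ORP4L KI. The ratio was below 1 in all WT libraries and in ORP4L KI replicate 1 and above 1 in the other ORP4L KI libraries.

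To set aside the division of reads among paralogs, the counts of the 25 H2 class I heavy chain rows were summed. H2-K1 and H2-D1 together held 57.8 to 63.4% of that sum in WT and 55.4 to 67.0% in ORP4L KI. The sum had a log2 fold change of 0.12 (edgeR quasi-likelihood test, unadjusted p = 0.631).

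B2m, the light chain that class I heavy chains pair with at the cell surface, had 3451, 3505 and 2567 CPM in WT. In ORP4L KI it had 2495, 3481, 3177 and 3239 CPM. The lowest library of each group, WT replicate 3 and ORP4L KI replicate 1, stood well below the others of its group. The log2 fold change was -0.03 (SE 0.24, edgeR quasi-likelihood test, adjusted p = 0.968). In RPKM, B2m stood at 0.928 to 1.16 of the sum of H2-K1 and H2-D1 across the 7 libraries, the lowest in ORP4L KI replicate 1.

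Tap1, one of the paired subunits that form the peptide transporter, had 286, 258 and 211 CPM in WT and 156, 237, 223 and 225 CPM in ORP4L KI. It had the lowest log2 fold change of the 10 genes at -0.26 (SE 0.22, edgeR quasi-likelihood test, adjusted p = 0.688), with a 95% interval from -0.75 to 0.22. ORP4L KI replicate 1 lay below every WT library, and the other ORP4L KI libraries lay inside the WT range. Without ORP4L KI replicate 1 the fold change was -0.14.

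Tap2, its partner subunit, had 270.2, 243 and 197 CPM in WT and 227, 239, 244 and 267 CPM in ORP4L KI, all 4 inside the WT range. Its log2 fold change was 0.05 (SE 0.19, edgeR quasi-likelihood test, adjusted p = 0.953). In RPKM, Tap1 stood at 0.921, 0.922 and 0.930 of Tap2 in WT and at 0.596, 0.862, 0.792 and 0.732 in ORP4L KI. These values are lower in all 4 ORP4L KI libraries than in all 3 WT libraries. This pair was picked out after its values were seen, no test was made of it, and how often other ratios separate was not computed.

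Tapbp, which encodes tapasin, had 319, 317 and 232 CPM in WT and 338, 285, 240.3 and 268 CPM in ORP4L KI. Only ORP4L KI replicate 1 lay above the WT range. The log2 fold change was -0.03 (SE 0.21, edgeR quasi-likelihood test, adjusted p = 0.968).

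Nlrc5, the transactivator of class I genes, varied most over all 7 mice. It had 166, 136 and 244 CPM in WT and 87.9, 301, 172 and 173 CPM in ORP4L KI. Within WT its libraries lay up to 1.79-fold apart, against 2.12-, 2.14- and 2.01-fold for Psmb8, Psmb9 and Psmb10. The ORP4L KI group held both the lowest and the highest library of all 7, which lay 3.42-fold apart, and ORP4L KI replicates 3 and 4 lay in the middle of the WT range. The log2 fold change was 0.01 (SE 0.38, edgeR quasi-likelihood test, adjusted p = 0.994), with a 95% interval from -0.84 to 0.87. Nlrc5 has the longest transcript of the 10 genes (6945 nt), and its high libraries in each group, WT replicate 3 and ORP4L KI replicate 2, were those in which long transcripts were high as a class. Its lowest library, ORP4L KI replicate 1 with a deviation of -0.95 on the log2 CPM scale, was the one in which long transcripts were lowest as a class. The part of transcript length in its values was not tested.

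The immunoproteasome subunits replace the constitutive catalytic subunits of the proteasome and favour cuts that yield class I peptides. Psmb8 had 325, 309.5 and 154 CPM in WT and 264, 221, 253 and 264 CPM in ORP4L KI. Psmb9 had 116, 104 and 54.5 CPM in WT and 96.5, 55.4, 82.3 and 76.1 CPM in ORP4L KI. Psmb10 had 102, 106 and 52.6 CPM in WT and 81.9, 68.8, 72.1 and 85.6 CPM in ORP4L KI. In all 3 genes WT replicate 3 was the lowest library and WT replicates 1 and 2 were the highest, so that the ORP4L KI values fell between them. Their log2 fold changes were -0.07 for Psmb8, -0.24 for Psmb9 and -0.17 for Psmb10 (SE 0.27, 0.29 and 0.25). The adjusted p-values of these subunits by edgeR's quasi-likelihood test were 0.949, 0.807 and 0.846.

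Transcripts under 1500 nt, to which Psmb8 (1223 nt), Psmb9 (806 nt) and Psmb10 (1270 nt) belong, were low as a class in WT replicate 3 and ORP4L KI replicate 2. Psmb8 to Psmb10 deviated by -0.70, -0.56 and -0.58 on the log2 CPM scale from their own means in WT replicate 3. B2m (858 nt), also short, deviated by -0.27 there but by 0.17 in ORP4L KI replicate 2. In ORP4L KI replicate 1, where short transcripts were high as a class, B2m deviated by -0.31. The part of transcript length in these values was not tested. With WT replicate 3 and ORP4L KI replicate 2 both left out, the log2 fold changes of Psmb8 to Psmb10 were -0.28, -0.38 and -0.38. Their unadjusted p-values by edgeR's quasi-likelihood test were 0.154, 0.0855 and 0.0671. That omission was decided once the deviations were known. Without WT replicate 3 alone, Psmb10 had a log2 fold change of -0.43 and an unadjusted p of 0.0464, the only one of the 10 genes under 0.05 in any fit. Without WT replicate 1 the log2 fold changes of Psmb8, Psmb9 and Psmb10 were 0.11, -0.036 and -0.040, and without WT replicate 2 they were 0.064, -0.14 and -0.0041.

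**Figure D2:**
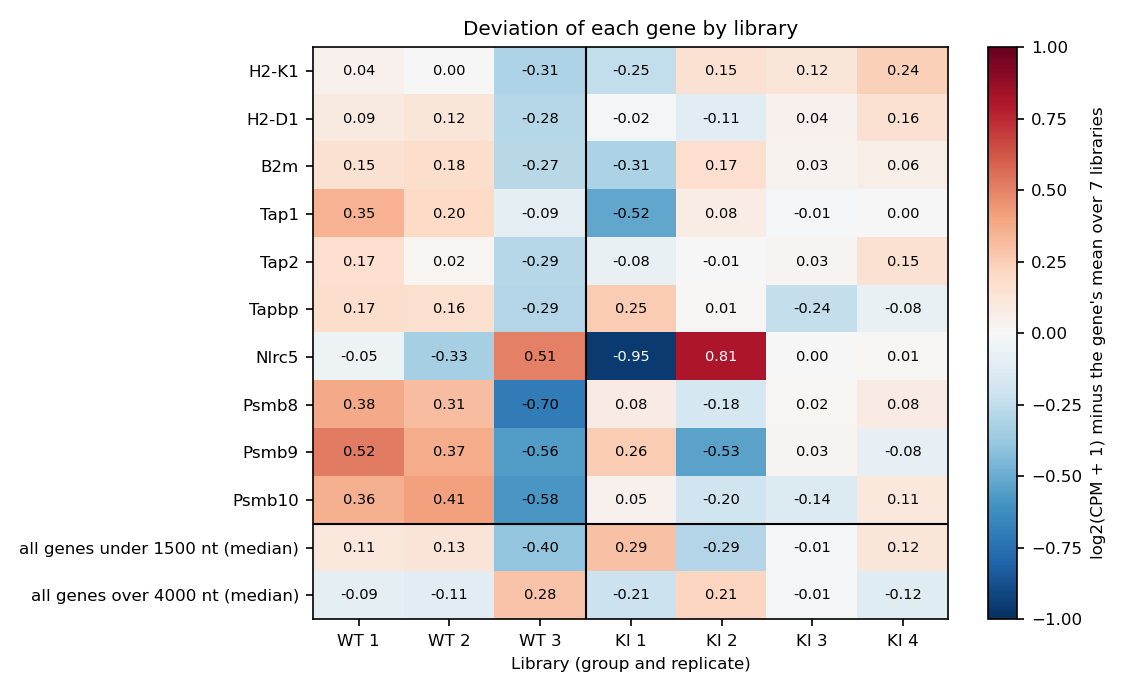
Deviation of each class I presentation gene from its own mean over the 7 libraries, on the log2(CPM + 1) scale (colour and printed value), with the median deviation of 2510 genes under 1500 nt and 3800 genes over 4000 nt below the line. The immunoproteasome subunits are low in WT replicate 3, as are short transcripts, and Nlrc5 is high there and in ORP4L KI replicate 2, as are long transcripts.

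**Figure D3:**
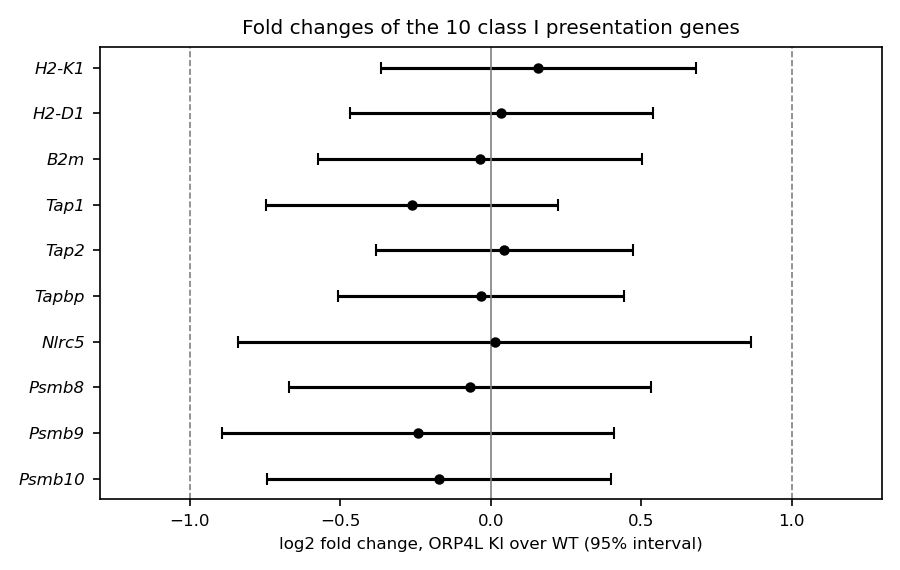
Log2 fold change (ORP4L KI over WT) of each gene with its 95% interval from edgeR's quasi-likelihood fit, and dashed lines at a 2-fold change. All 10 intervals cross 0 and stay inside the dashed lines, and that of Nlrc5 is the widest.

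Each immunoproteasome subunit was also set against the constitutive subunit whose place it takes, within each library, so that the scaling between libraries dropped out. The ratio of Psmb8 to Psmb5 counts was 6.34, 6.08 and 6.14 in WT and 2.49, 7.89, 5.84 and 5.78 in ORP4L KI. The WT values lay close together, while ORP4L KI replicates 1 and 2 lay far to either side. On the log2 scale the difference was -0.29 (exact permutation test, two-sided, p = 0.686).

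The ratio of Psmb9 to Psmb6 was 1.40, 1.21 and 1.37 in WT and 0.678, 1.08, 1.14 and 0.920 in ORP4L KI. The ratio of Psmb10 to Psmb7 was 1.26, 1.16 and 1.02 in WT and 0.466, 1.01, 0.926 and 0.901 in ORP4L KI. In both pairs all 4 ORP4L KI libraries lay below all 3 WT libraries, although ORP4L KI replicate 2 was close to WT replicate 3 in the second. Of all single genes tested 13.8% separated in CPM, and no such share was computed for ratios. The log2 differences were -0.50 for Psmb9 to Psmb6 (0.41 ± 0.12, SD, n = 3 in WT; -0.10 ± 0.34, n = 4 in ORP4L KI; exact permutation p = 0.0571) and -0.53 for Psmb10 to Psmb7 (0.19 ± 0.16 in WT; -0.34 ± 0.51 in ORP4L KI; exact permutation p = 0.0857). Adjusted over the 3 ratios both exact p-values were 0.129, and the smallest p that 4 mice against 3 allow is 0.0286. Neither difference passed 0.05.

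ORP4L KI replicate 1 was the lowest library in all 3 ratios. It had the highest CPM of the constitutive subunits, with 106 for Psmb5, 142 for Psmb6 and 176 for Psmb7, against 51.2, 86.5 and 91.1 at most in WT, and the highest share of granulocyte markers. The part of the granulocyte transcripts in the ratios was not tested. Without that library the log2 differences were 0.06, -0.35 and -0.28, so the first changed sign, and the exact p for the other ratios was 0.1, the smallest that 3 mice against 3 allow.

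**Figure D4:**
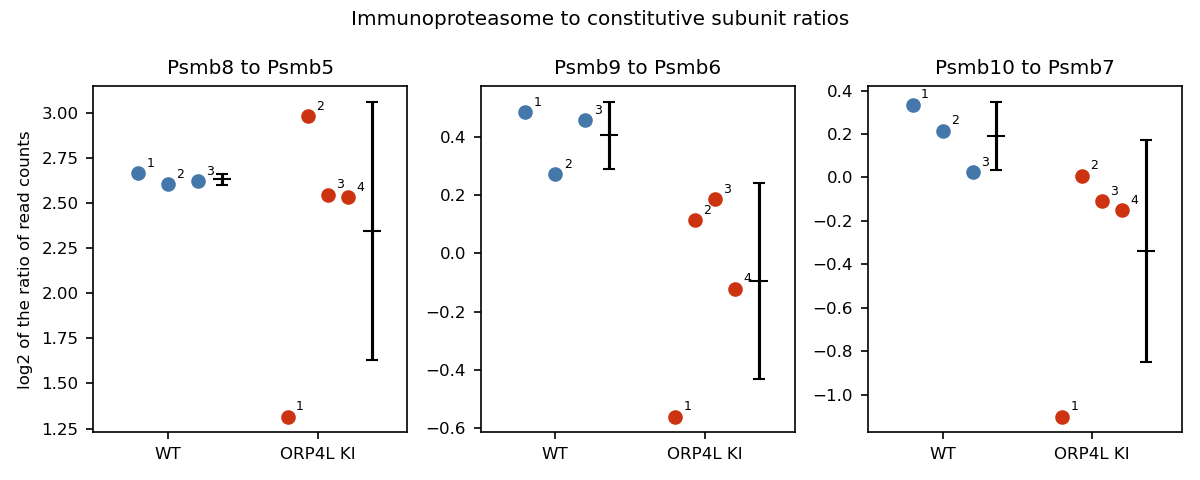
Log2 of the ratio of read counts between each immunoproteasome subunit and the constitutive subunit it replaces, by library (WT blue, ORP4L KI red, numbered by replicate), with the mean and SD in black. ORP4L KI replicate 1 is the lowest point in each panel. The groups do not overlap for Psmb9 to Psmb6 and Psmb10 to Psmb7, and how often other ratios separate was not computed.

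Psmb9 and Tap1 start from the shared stretch printed above, yet their proportion varied widely between mice. In RPKM, Tap1 stood at 0.692, 0.695 and 1.09 of Psmb9 in WT and at 0.455, 1.20, 0.761 and 0.831 in ORP4L KI. The highest values came from WT replicate 3 and ORP4L KI replicate 2, in which the shorter Psmb9 transcript was low. The lowest came from ORP4L KI replicate 1, where Tap1 was low. The groups overlapped.

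Compared per length in the deposited RPKM, the levels fell into a steep order. B2m had a median of 3685 RPKM over the 7 libraries (range 2425 to 4414) and ranked 9 of 25033 genes. H2-K1 (median 1861, range 1209 to 2082) and H2-D1 (median 1744, range 1404 to 1954) followed at ranks 56 and 60 with overlapping ranges, H2-K1 being the higher in 3 of 7 libraries. B2m exceeded both in every library. Psmb8 came next with 199 RPKM (138 to 287) and did not overlap the heavy chains above it or Tapbp below it, while the range of Psmb9 reached 156 RPKM. Tapbp (102), Psmb9 (99.8), Tap2 (97.6), Tap1 (80.9) and Psmb10 (58.9) formed a run in which each range overlapped the next. Nlrc5 was the lowest at 24.6 RPKM (10.6 to 47.1) and its range just reached that of Psmb10, although it lay below Psmb10 in all 7 libraries.

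The other genes of the pathway, from lists of related genes, were examined in the same fit. Of 21 tested heavy chain genes other than H2-K1 and H2-D1, 1 was called lower and 0 higher, and the median log2 fold change was -0.05. The gene called was H2-M2, a nonclassical heavy chain, with 9.13, 17.9 and 10.04 CPM in WT and 0.791, 5.20, 3.79 and 3.67 CPM in ORP4L KI. Its log2 fold change was -1.87 (SE 0.51, edgeR quasi-likelihood test, adjusted p = 0.139). H2-T24 (log2 fold change -0.70) and Cd1d1 (-0.48), which presents lipids, did not pass, although their groups did not overlap.

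Of 10 other peptide loading and trimming genes, 1 was called higher and 0 lower, with a median of 0.08. That gene was Npepps, a cytosolic aminopeptidase, with 50.7, 49.99 and 59.5 CPM in WT and 202, 69.9, 85.3 and 109 CPM in ORP4L KI. Its log2 fold change was 1.13 (SE 0.35, edgeR quasi-likelihood test, adjusted p = 0.177), and the call was lost without ORP4L KI replicate 1 and with scaling by total counts. Calr, a chaperone of the loading complex, had a log2 fold change of 0.27 and Sppl2a, a membrane protease, one of -0.20. None of the 3 constitutive catalytic subunits was called, with log2 fold changes of 0.48 for Psmb7, 0.39 for Psmb5 and 0.32 for Psmb6. Without ORP4L KI replicate 1 their median moved from 0.39 to -0.02. None of the 19 other proteasome genes was called either, with a median of 0.11 and the lowest p-values for Psmb3, Psma2 and Psma6 at log2 fold changes of 0.71, 0.32 and 0.35. By edgeR's quasi-likelihood test 0 of these 22 proteasome genes had an unadjusted p under 0.05.

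Among 20 regulators of class I and interferon response genes, 2 were called lower and 0 higher, with a median of -0.19. Irf8, a transcription factor of myeloid, dendritic and B-cells, had 375, 428 and 252 CPM in WT and 108, 129, 198 and 137 CPM in ORP4L KI. Ciita, the class II counterpart of Nlrc5, had 74.0, 73.8 and 69.3 CPM in WT and 11.7, 25.4, 47.6 and 18.3 CPM in ORP4L KI. The groups did not overlap for either gene, and the log2 fold changes were -1.297 (SE 0.27) and -1.49 (SE 0.40), with adjusted p-values of 0.0708 and 0.129 by edgeR's quasi-likelihood test. Rfx5, part of the complex through which both NLRC5 and CIITA act, had a log2 fold change of -0.66 and did not pass.

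All 9 class II presentation genes had negative log2 fold changes, from -1.40 to -0.86 with a median of -1.10, and 3 of them were called lower. H2-Aa had 1953, 2831 and 1317 CPM in WT and 712, 468, 1221 and 863 CPM in ORP4L KI, without overlap. H2-Ab1 and H2-Eb1, which like H2-Aa encode chains of the class II molecules, both had a log2 fold change of -1.39 with overlapping groups. The smallest adjusted p of these 3 genes was 0.14 by edgeR's quasi-likelihood test. Without ORP4L KI replicate 1, 0 of the 9 were called by that test while the median was -1.06, and with scaling by total counts all 9 were called. The class II genes thus lay in a range of log2 fold change that did not meet that of the 10 class I genes. The dendritic cell markers, also lower in ORP4L KI, took 0.0543 to 0.0762% of counts in WT and 0.0124 to 0.0268% in ORP4L KI, and their part was not tested.

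Of 30 interferon-stimulated genes, 5 were called lower and 0 higher, and 26 had a negative log2 fold change, with a median of -0.30. The chemokine gene Cxcl9 fell from 32.05, 34.5 and 16.9 CPM in WT to 2.31, 9.97, 10.97 and 7.46 CPM in ORP4L KI, with a log2 fold change of -1.85. The antiviral genes Oasl1 and Oasl2, the ubiquitin-like protease gene Usp18 and the surface protein gene Bst2 had log2 fold changes of -1.23, -1.05, -1.11 and -1.14. Bst2 alone of these 5 had overlapping groups, and none passed adjustment over all genes, the lowest adjusted p being 0.0766 for Oasl1 by edgeR's quasi-likelihood test. Without ORP4L KI replicate 1 the count called was 5 and the median -0.20. The summed share of these genes overlapped between groups, at 0.114 to 0.138% of counts in WT and 0.0609 to 0.130% in ORP4L KI. Of the dendritic cell markers 6 of 8 were called lower, with a median of -1.51. Of 12 monocyte and macrophage markers 3 were called lower and 1 higher. Among the 12, 10 had a negative log2 fold change, and the median was -0.84. Their summed share overlapped, at 0.323 to 0.483% of counts in WT and 0.233 to 0.602% in ORP4L KI. The part of either cell type was not tested. Of the 10 class I genes, also inducible by interferon, 0 were called, against 4.68% of all genes tested. For 10 genes a count of 0 is near that share, and the part of interferon was not tested.

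**Figure D5:**
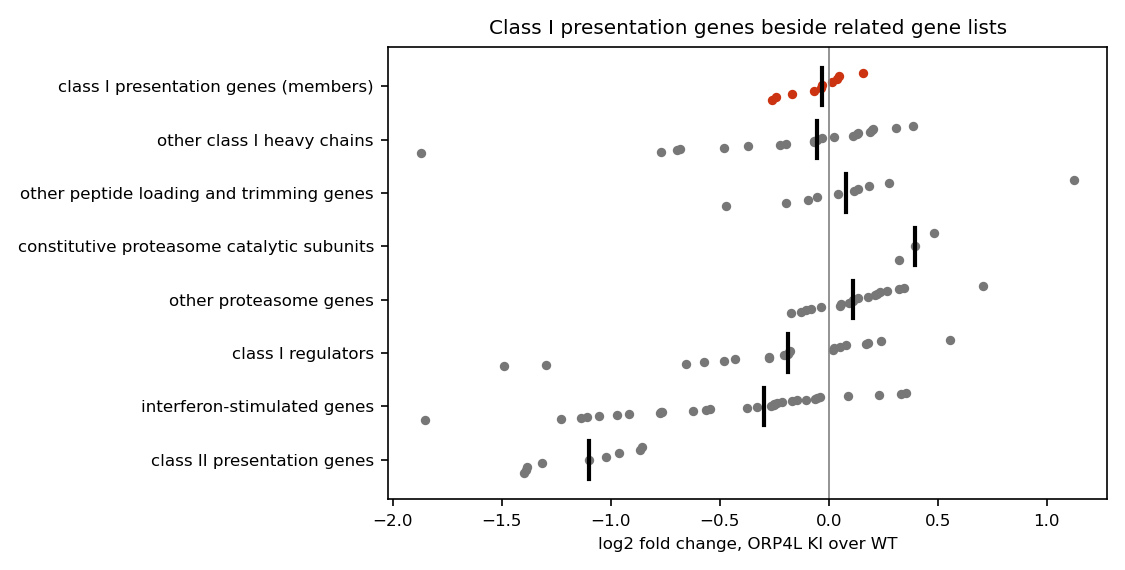
Log2 fold change (ORP4L KI over WT) of each tested gene in the class I presentation set (red) and 7 related lists (grey), with the median of each as a black bar. The class I set spans -0.26 to 0.16, while all 9 class II genes lie at or below -0.86.

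The likeness of other genes to the set was measured as the mean absolute difference between a gene's centred log2 CPM profile over the 7 libraries and the mean profile of the 10 genes. Among 13239 genes outside the lists, the nearest were Sf3a2 (0.0346), Dtx2 (0.0387), Trp53 (0.0439), Tpst2 (0.0517) and Sf3b4 (0.0529). Within the set Tap2 (0.0563) and B2m (0.0672) lay nearest to the mean profile and Nlrc5 (0.457) farthest. With 7 points sharing library depth and composition, this is a description without a test.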

How the data were processed

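The authors made mRNA libraries from Trizol-extracted RNA, sequenced them on an Illumina instrument, removed adapters, aligned reads with FANSe3 against mouse mRNAs and added up the splice variants of each gene. They deposited the read count per gene, without normalization, and the RPKM, which they scaled by the length of the longest transcript. The labels name build mm10, and the handling of reads with several matches is not given in the sources used here. Counts were used for all tests and the deposited RPKM only for levels between genes.

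Samples were grouped by genotype from the labels, and no 2 libraries were alike within sampling noise. Genes were filtered with edgeR 4.0.16's filterByExpr (10 counts per library, 15 in all), scaled by TMM and tested with its quasi-likelihood test in R 4.3.3, with Benjamini-Hochberg adjustment over 13462 genes. Intervals use the SE and total degrees of freedom of that fit, which are the residual ones plus prior ones estimated over all genes. Exact permutation tests, two-sided, covered the 35 splits of 4 mice against 3, for each gene on log2(CPM + 1) (p from 0.257 to 1) and for 3 subunit ratios on log2 ratios. The genes named are the 10 genes, those called in each list or, where fewer than 3 were, those with the lowest p up to 3, and the 5 nearest in profile. Of the genes this rule covers, 1 is left out here. The genes and lists were chosen with earlier results of these data known. Alternatives were other scalings, filters and tests (DESeq2 1.42.0, limma 3.58.1), the replicate number as a block, each library left out, thinned counts and summed heavy chains. Depth, 12918187 to 19665679 counts, leaves counting error small for all 10 genes. Sequences came from RefSeq (GRCm38.p6) and GENCODE vM21. Tables came from pandas 2.3.3 and SciPy 1.17.1 under Python 3.11.15, alignments from Biopython 1.88 and plots from Matplotlib 3.10.9.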

Additional observations from a re-analysis of the deposited data

How the results depend on the processing

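In every refit 0 of the 10 genes were called at either threshold. The groups separated for 0 of 10 with total-count CPM or RPKM, for 0 to 4 with each library left out and for 5 with WT replicate 3 and ORP4L KI replicate 2 both left out, where 36.3% of all genes separated. Of 210 refitted fold changes 180 kept their sign and 30 reversed. With upper-quartile scaling H2-D1 stood at -0.030, Tap2 at -0.020 and Nlrc5 at -0.041. Scaling by total counts, which moved the median of all genes to -0.13, gave -0.11, -0.095 and -0.089. In limma-voom Nlrc5 was -0.078 and Psmb8 0.0062. With WT replicate 3 and ORP4L KI replicate 2 both left out, H2-D1, Tap2 and Nlrc5 were -0.039, -0.060 and -0.064. Leaving out each library gave -0.081 to 0.11 for H2-D1, -0.17 to 0.054 for B2m, -0.071 to 0.15 for Tap2, -0.17 to 0.044 for Tapbp, -0.36 to 0.28 for Nlrc5, -0.34 to 0.11 for Psmb8, -0.51 to -0.036 for Psmb9, -0.43 to -0.0041 for Psmb10 and -0.50 to 0.056 for Psmb8 to Psmb5, which reversed without ORP4L KI replicate 1. The cause was not tested. Over all genes, leaving out each library gave 328 to 805 calls at the first threshold and 0 to 342 at an adjusted p under 0.05, the highest of both without ORP4L KI replicate 2 and the lowest of the first without WT replicate 2. The count at an adjusted p under 0.05 was 3, but 44 with upper-quartile scaling, 113 with total counts, 176 without filter, 784, 706 and 682 by DESeq2's Wald and edgeR's likelihood ratio and exact tests, 0 with at least 10 counts in every sample, 0 by limma-voom and 0 with both libraries left out (1549, 1751 and 2017 at an unadjusted p under 0.05).

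Replicate numbers 1 to 3 recur in both groups, but the deviations of same-numbered libraries correlated at 0.183, -0.608 and 0.0524, so the numbers did not pair the mice. With the number as a replicate block, ORP4L KI replicate 4 left out, 466 genes passed the first threshold and 48 an adjusted p under 0.05. The same 6 libraries without the block gave 442 and 0 (1421 at an unadjusted p under 0.05). H2-D1 stood at -0.0078 with the block and -0.015 without it, Nlrc5 at -0.11 with it, and Tap2 at -0.0033 without it. The block changed no call of the 10 genes.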

Other observations

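The marker lists describe the rest of each library. All 14 granulocyte markers were called higher in ORP4L KI, with a median log2 fold change of 4.21. Among them Mmp8, a neutrophil collagenase gene, had 44.2, 65.0 and 55.8 CPM in WT and 874, 158, 322 and 450.4 CPM in ORP4L KI. Of 8 dendritic cell markers 6 were called lower, among them Cd209a (log2 fold change -2.41) and Siglech (-2.29). Of 9 NK cell markers 4 were called lower, among them the granzyme gene Gzma (-2.26) and the receptor gene Ncr1 (-1.86). The median of the 9 was -0.90, and 1 of them went the other way at 0.69, not called but without overlap of the groups. Of 12 monocyte and macrophage markers 3 were called lower, among them Csf1r (-1.17), the receptor gene for a macrophage growth factor. Only 1, Ly6c2 (1.27), was called higher, and the median of the 12 was -0.84. None of 15 T-cell markers, 12 B-cell markers or 11 tested erythroid markers was called, with medians of 0.12, -0.33 and -1.50. By edgeR's quasi-likelihood test 0 of the T-cell, 0 of the B-cell and 6 of the erythroid markers had an unadjusted p under 0.05.

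All 20 proliferation markers had positive log2 fold changes with a median of 1.08, and Mki67, Top2a, Kif11 and Rrm2 were called higher. Mki67, which marks cycling cells, had 134, 105 and 84.1 CPM in WT and 336, 211, 196 and 185 CPM in ORP4L KI. Without ORP4L KI replicate 1 the number called was 1 of 20 and the median 0.70.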
